A study of Homo sapiens with 12 samples.

Results

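Splicing regulators other than the serine/arginine-rich (SR) proteins were described as 1 module of RNA-binding proteins in lung cancer cells that over-express the SR protein SRSF2. The module is a fixed list of 44 genes: heterogeneous nuclear ribonucleoproteins (hnRNPs), the polypyrimidine tract-binding (PTB) and poly(C)-binding (PCBP) proteins, proteins of the RBM and muscleblind (MBNL) families, the FET proteins and related regulators. Members were found by gene symbol, and 41 of the 44 were found among the 16599 genes of the count table. HNRNPA1, TIA1 and TAF15 were not analysed here.

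SR proteins bind exons and help the spliceosome to select them, whereas hnRNPs package nascent transcripts and often act as repressors of splice sites. Most regulators of both kinds bind short RNA motifs, act on many pre-mRNAs, and compete or cooperate according to where on the transcript they bind. Many of these genes also control their own transcript or that of a close relative through an exon whose inclusion or skipping sends the RNA into decay, so the RNA level of a member can depend on its splicing.

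The RNA came from the established human lung cancer lines A549 and H1650, each untreated or over-expressing SRSF2. There were 3 libraries of polyadenylated RNA in each of the 4 groups: untreated A549, A549 SRSF2, untreated H1650 and H1650 SRSF2. The design text calls the controls normal cell lines and their titles carry the unexplained letters NC, so whether they received an empty construct is not known. How SRSF2 was over-expressed, for how long, and whether the cells were a clone are not given in the sources used here. SRSF2 itself was not analysed here, so no level checks the labels.

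Total counts per library ran from 23876899 to 32079027, and the lowest count of any member in any library was 432. All 6 epithelial marker genes looked for were detected in every group, but the untreated lines differed in them. EPCAM was at 5.43 to 6.33 CPM (counts scaled to a common library total) in untreated A549 against 294.5 to 314.9 in untreated H1650. CDH1 and KRT19 were also lower in untreated A549, whereas KRT7, KRT8 and KRT18 were higher there. The 2 fibroblast markers analysed here (of 5 listed) summed to at most 22.7 CPM, and the listed leukocyte, endothelial and erythroid markers were not analysed here. Replicates of H1650 SRSF2 varied most, with a biological coefficient of variation of 0.056 against 0.0298 to 0.0342 in the other groups. Nothing in the labels says that replicates were separate cultures, so p-values measure only the spread between libraries. RNA of whole cultures cannot tell fewer expressing cells from less RNA per cell.

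Levels are CPM scaled by TMM (a correction for libraries that differ in composition), given for replicates 1, 2 and 3 in that order or as mean ± SD (n = 3). Unless stated otherwise, log2 fold changes set SRSF2 libraries against untreated ones, and each is given ± its standard error (SE). A gene is called higher or lower, or said to have risen or fallen, at an adjusted p under 0.05 from edgeR's quasi-likelihood test over 15991 genes. Counts are per gene, so isoforms of a member are not told apart. Most members with values in every library were chosen among called members whose SRSF2 and untreated libraries do not overlap in the line concerned. Their separation there is therefore not a finding. Over all genes tested, these groups did not overlap in 45.6% in A549 and in 64.7% in H1650.

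With SRSF2 over-expression 16 members were called in A549 and 30 in H1650, and most of the changes were small. In A549, 10 of 41 members rose (24.4%, against 16.4% of all genes tested) and 6 fell (14.6%, against 15.9%). The number of falls in A549 rested on all 6 libraries: it was 2 without untreated replicate 3 and 3 without any other 1 of them. Over all genes the share of falls was also lower with 1 A549 library left out, at 12.4% to 14.1% against 15.9%. With RLE scaling (another correction for composition) or DESeq2, 8 members rose and 8 fell in A549. Over all genes 14.5% rose and 18.7% fell with RLE scaling, and 13.6% and 17.5% did by DESeq2. The balance of rises and falls in A549 thus depended on the scaling, among members and over all genes. In H1650, 15 rose (36.6%, against 31.0% of all genes) and 15 fell (36.6%, against 31.3%). Called changes of at least 0.5 on the log2 scale were found in 1 of 41 members in A549 (2.44%, against 7.34%), namely MBNL2, and in 5 of 41 in H1650 (12.2%, against 29.9%), namely RBM39, ELAVL1, PTBP1, KHDRBS1 and HNRNPF. On log2(FPKM + 1), a scale that understates changes of low genes, these counts were 0 and 3. The median log2 fold change of the members was 0.03 in A549 and -0.03 in H1650, and over all genes it was 0.0021 and 0. The median absolute log2 fold change was 0.085 in A549 and 0.20 in H1650, against 0.16 and 0.36 over all genes. The median level was 228.6 CPM over the members and 20.4 CPM over all genes tested. In GENCODE 29 coordinates on GRCh38, these 6 genes are MBNL2 (ENSG00000139793, chr13:97221434-97394120), RBM39 (ENSG00000131051, chr20:35701347-35742312), ELAVL1 (ENSG00000066044, chr19:7958579-8005659), PTBP1 (ENSG00000011304, chr19:797075-812327), KHDRBS1 (ENSG00000121774, chr1:32013829-32060850) and HNRNPF (ENSG00000169813, chr10:43385617-43409166).

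The balance between rises and falls in H1650 depended on the scaling too, as it did over all genes. With plain library totals in place of TMM, 12 members rose and 22 fell in H1650, a share of rises among the calls of 35.3% in place of 50%. Over all genes tested that share was 40.9% with plain totals and 49.8% with TMM, and the median log2 fold change was -0.08 in place of 0. The median of the members went from -0.03 to -0.11, a shift like that of all genes. On the log2 FPKM scales 11 to 12 members rose and 21 fell in H1650 (over all genes 23.5% to 24% and 35.1% to 35.9%). With plain library totals HNRNPU, MBNL2 and SFPQ lost their call, and HNRNPDL, HNRNPL, HNRNPM, MATR3, PCBP2, RBM25 and SYNCRIP were called lower. On both log2 FPKM scales MBNL1, MBNL2 and SFPQ lost their call, and HNRNPU did so on log2(FPKM + 0.1) only. The summed level of the 41 members depended on the scaling as well. It was 11677, 11740 and 11418 CPM in untreated H1650 and 12719, 12464 and 12266 CPM in H1650 SRSF2 by TMM, and these groups did not overlap. By plain totals it was 11682, 11816 and 11363 CPM against 11905, 11810 and 11722 CPM, and the groups overlapped. In A549 the sum was 13257 ± 85 CPM untreated and 13226 ± 261 CPM with SRSF2 by TMM.

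**Figure D1:**
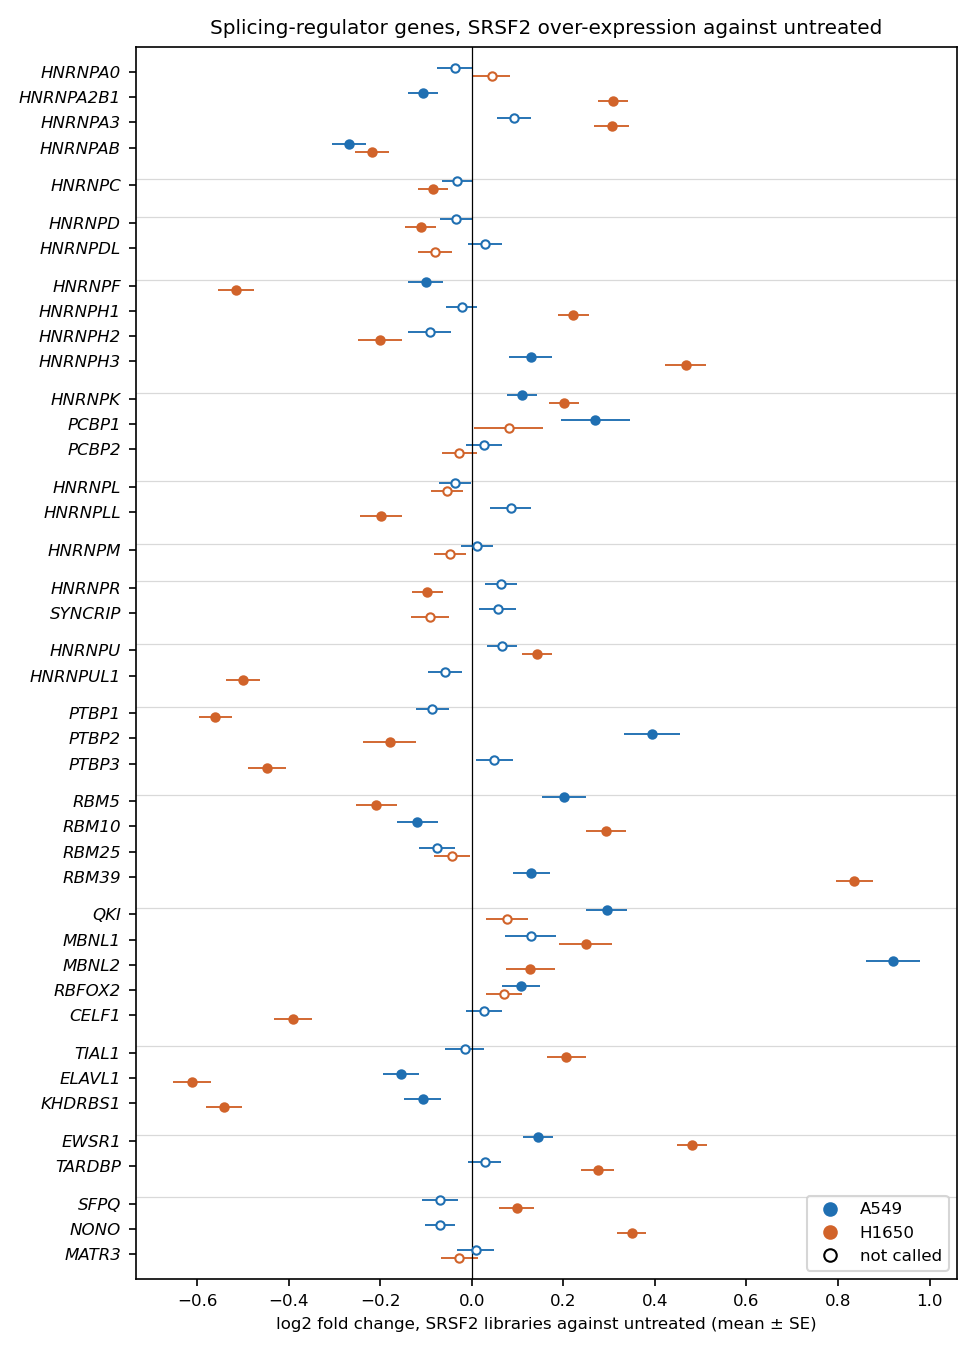
Log2 fold change (x axis, point ± SE) of each of the 41 members (y axis, grouped by family), SRSF2 against untreated libraries, in A549 (blue) and H1650 (orange), with filled points for genes called at an adjusted p under 0.05. Most points lie within 0.5 of 0, and the points farthest from 0 are MBNL2 in A549 (0.92) and RBM39 in H1650 (0.84).

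Set side by side, 9 members (22%, against 18.1% of all genes tested) were called in the same direction in both lines: EWSR1, HNRNPH3, HNRNPK, MBNL2 and RBM39 rose, and ELAVL1, HNRNPAB, HNRNPF and KHDRBS1 fell. Of these, 4 kept both calls under every alternative setting and every omission of a library: EWSR1, HNRNPK, ELAVL1 and HNRNPAB. A further 4 members (9.76%, against 5.97%) were called in opposite directions, PTBP2 and RBM5 rising in A549 and falling in H1650, and HNRNPA2B1 and RBM10 doing the reverse. PTBP2 and RBM5 kept both calls in every alternative. The A549 call was lost in 2 of 14 alternatives for HNRNPA2B1 and in 5 for RBM10. There were 17 members called in H1650 and not in A549 (41.5%, against 38.2%). Those called in A549 and not in H1650 were 3 (7.32%, against 8.19%), namely PCBP1, QKI and RBFOX2. The 8 called in neither line (19.5%, against 29.5%) were HNRNPA0, HNRNPDL, PCBP2, HNRNPL, HNRNPM, SYNCRIP, RBM25 and MATR3. A call in 1 line and not in the other does not show that the lines differ, so the difference was tested itself. The log2 fold change in H1650 minus that in A549 was called above 0 for 11 members (26.8%, against 23.5% of all genes) and called below 0 for 14 (34.1%, against 24.0%). With plain library totals these counts were 10 and 21 (over all genes 19.4% and 29.2%). On both log2 FPKM scales they were 8 and 21 (over all genes 19.5% to 20.4% and 28.4% to 28.6%). A called difference of at least 0.5 in size was found for 3 members (7.32%, against 24.0%): MBNL2, RBM39 and PTBP2. This count was 5 without H1650 SRSF2 replicate 3 and 8 with plain library totals. All 4 members with opposite calls were among the 25 called for the difference.

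**Figure D2:**
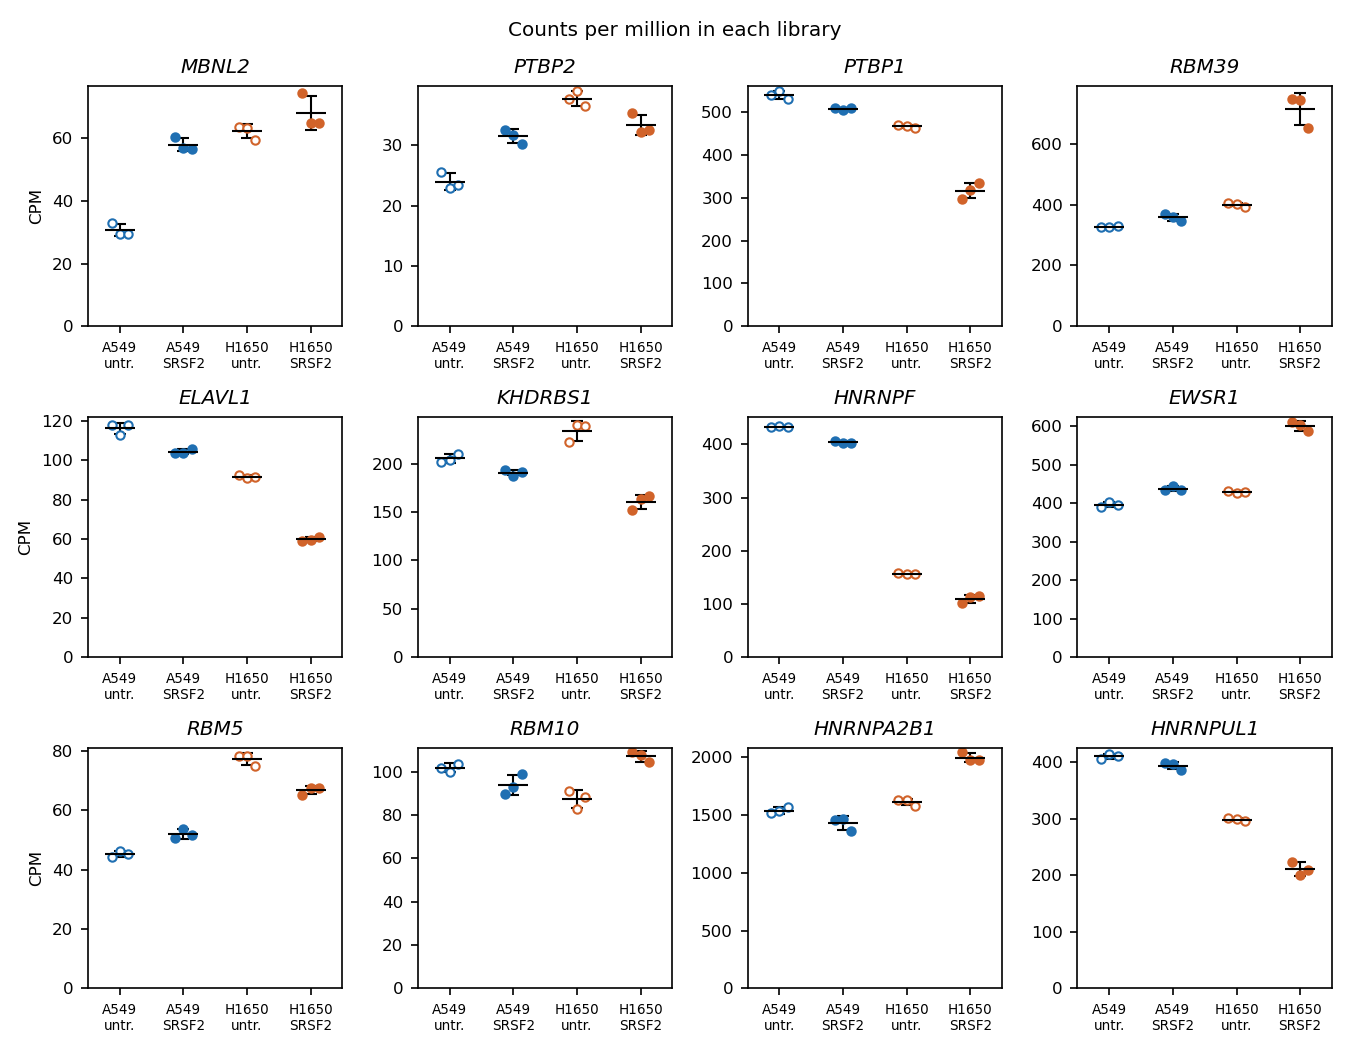
CPM scaled by TMM (y axis, from 0) of 12 members in each library (points, replicates 1 to 3 from left to right), by group, with the mean and SD of 3 libraries in black. MBNL2 rose in A549 to a level near that of H1650, RBM39 rose mainly in H1650, and RBM5, RBM10, HNRNPA2B1 and PTBP2 moved in opposite directions in the lines.

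Promoter sequence is shown for 7 members: MBNL2, which rose most in A549, KHDRBS1, HNRNPF and HNRNPUL1, which fell in H1650, PTBP2 and PTBP3, which belong to a family that fell as a whole in H1650, and HNRNPK, which shares a rare motif with HNRNPUL1. Each is the part of the 250 bases upstream of the RefSeq start site (build GRCh38.p14) that lies outside every GENCODE 29 exon, printed 5′ to 3′ on the strand of the gene. The genes lie on the plus strand, except HNRNPF, PTBP3 and HNRNPK. Capitals mark 6 motifs searched on both strands: CCAAT (the CCAAT box), CCGGAAG (an ETS-type site), CACGTG (an E-box), CTCGCGAG, AAGATGGC (a YY1-type site) and GCATGCGC (an NRF1-type site). The stretches are chr13:97141584-97141833 for MBNL2, chr1:32013618-32013828 for KHDRBS1, chr10:43408883-43409089 for HNRNPF, chr19:41262307-41262495 for HNRNPUL1, chr9:83980617-83980710 for HNRNPK, chr1:96722388-96722637 for PTBP2 and chr9:112333030-112333276 for PTBP3.
MBNL2: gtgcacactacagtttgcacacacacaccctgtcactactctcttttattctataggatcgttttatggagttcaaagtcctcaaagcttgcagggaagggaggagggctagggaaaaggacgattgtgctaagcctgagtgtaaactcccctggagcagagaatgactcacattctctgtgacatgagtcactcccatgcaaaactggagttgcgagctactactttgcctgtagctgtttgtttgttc
KHDRBS1: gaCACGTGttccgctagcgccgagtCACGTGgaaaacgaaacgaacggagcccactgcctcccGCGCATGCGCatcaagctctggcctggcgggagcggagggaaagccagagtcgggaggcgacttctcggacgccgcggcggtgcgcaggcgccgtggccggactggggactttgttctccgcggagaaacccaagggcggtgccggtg
HNRNPF: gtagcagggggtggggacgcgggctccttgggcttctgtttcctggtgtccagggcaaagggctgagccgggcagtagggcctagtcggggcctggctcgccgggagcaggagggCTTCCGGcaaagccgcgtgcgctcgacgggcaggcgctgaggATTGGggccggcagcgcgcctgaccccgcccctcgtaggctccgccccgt
HNRNPUL1: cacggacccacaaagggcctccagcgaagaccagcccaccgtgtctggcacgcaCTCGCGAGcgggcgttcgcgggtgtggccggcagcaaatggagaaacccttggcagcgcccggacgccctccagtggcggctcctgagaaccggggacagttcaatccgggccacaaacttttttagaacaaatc
HNRNPK: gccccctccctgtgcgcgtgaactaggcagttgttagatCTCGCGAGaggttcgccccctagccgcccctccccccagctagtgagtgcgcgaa
PTBP2: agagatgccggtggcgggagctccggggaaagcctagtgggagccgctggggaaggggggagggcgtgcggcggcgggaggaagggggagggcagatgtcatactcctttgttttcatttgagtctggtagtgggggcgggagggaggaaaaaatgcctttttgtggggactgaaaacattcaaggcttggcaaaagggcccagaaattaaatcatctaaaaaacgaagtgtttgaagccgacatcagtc
PTBP3: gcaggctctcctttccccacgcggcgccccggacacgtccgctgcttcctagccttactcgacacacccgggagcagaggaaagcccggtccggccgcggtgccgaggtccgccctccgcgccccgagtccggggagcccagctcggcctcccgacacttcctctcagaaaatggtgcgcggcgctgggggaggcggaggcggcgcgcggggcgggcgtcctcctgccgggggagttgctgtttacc

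RefSeq windows were found for 36 of the 41 members, and the first listed window of each was used. In the 250 upstream bases CCAAT was present in 17 of 36 members (47.2%, against 33.0% of 27305 genes with a window) and CACGTG in 7 (19.4%, against 6.49%). CCGGAAG was present in 5 members (13.9%, against 8.82%), CTCGCGAG in 2 (5.56%, against 0.916%), AAGATGGC in 1 (2.78%, against 1.37%) and GCATGCGC in 1 (2.78%, against 2.81%). The median GC content was 65.6% in members and 58% in all windows. The CTCGCGAG motif stood upstream of HNRNPK, which rose, and of HNRNPUL1, which fell in H1650, so carriers of these letters did not share a direction. The stretches of MBNL2, PTBP2 and PTBP3 held none of the 6 motifs, and that of MBNL2 belongs to a start site outside the gene as GENCODE 29 draws it. Those of HNRNPF, PTBP2 and PTBP3 lie inside the gene as GENCODE 29 draws it, between exons. A match is a description of the letters and not evidence of a binding site.

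Among the core hnRNPs of the A/B type, which coat nascent transcripts, HNRNPA2B1 moved in opposite directions in the lines and HNRNPAB fell in both. HNRNPA2B1, the most abundant member per length in both lines, was at 1513, 1531 and 1567 CPM in untreated A549 and 1455, 1468 and 1358 CPM with SRSF2. In H1650 it was at 1627, 1629 and 1580 CPM untreated and 2044, 1974 and 1972 CPM with SRSF2. The groups did not overlap in either line: the SRSF2 libraries were lower in A549 and higher in H1650. The log2 fold change was -0.11 ± 0.033 (edgeR adjusted p = 0.0111) in A549 and 0.31 ± 0.033 (edgeR adjusted p = 4.45e-10) in H1650, and the difference between the lines was 0.42 ± 0.046 (edgeR adjusted p = 3.45e-09). The small fall in A549 lost its call without untreated replicate 3 (edgeR adjusted p = 0.0683) or without SRSF2 replicate 3 (0.105). HNRNPA3, a close relative, rose in H1650 (0.31 ± 0.038, edgeR adjusted p = 1.2e-08) and had a log2 fold change of 0.09 in A549 that missed the threshold (adjusted p = 0.0578).

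HNRNPAB, an RNA-binding protein of mRNA transport and stability, fell in both lines. It was at 286, 292 and 280.3 CPM in untreated A549 against 235, 243 and 235 CPM with SRSF2, and at 218, 234 and 223 CPM in untreated H1650 against 194, 197 and 188 CPM with SRSF2. Every SRSF2 library was below every untreated library of its line. The log2 fold changes were -0.27 ± 0.037 (edgeR adjusted p = 5.14e-07) in A549 and -0.22 ± 0.037 (edgeR adjusted p = 4.74e-06) in H1650, with a difference of 0.05 ± 0.052 that was not called (adjusted p = 0.453). HNRNPA0, which binds AU-rich elements in mRNA, was called in neither line (-0.04 and 0.04). HNRNPC, which binds uridine tracts and keeps cryptic exons out of mRNA, and HNRNPD, which binds AU-rich elements and promotes decay, fell slightly in H1650 (-0.08 ± 0.034, edgeR adjusted p = 0.0286 and -0.11 ± 0.035, edgeR adjusted p = 0.00554). The HNRNPC call was lost without untreated replicate 1 or 2 or SRSF2 replicate 1, and in a fit to the H1650 libraries alone (adjusted p up to 0.12).

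The hnRNP F/H family binds runs of G and can promote or repress exons. Its members split in H1650, where HNRNPH1 and HNRNPH3 rose and HNRNPF and HNRNPH2 fell. HNRNPF was at 158, 156 and 157 CPM in untreated H1650 and 101, 113 and 115 CPM with SRSF2, and at 433, 435 and 432 CPM in untreated A549 and 407, 402 and 403 CPM with SRSF2. In both lines the SRSF2 libraries were all below the untreated ones. The log2 fold change was -0.51 ± 0.04 (edgeR adjusted p = 2.42e-13) in H1650 and -0.10 ± 0.037 (edgeR adjusted p = 0.0364) in A549. The A549 call was lost on log2 FPKM and when any 1 of the 6 A549 libraries was left out (adjusted p up to 0.111), while the difference between the lines was called (-0.41 ± 0.055, edgeR adjusted p = 1.09e-07). HNRNPH3, which lacks an RNA-binding domain that the other family members have, was at 193, 192 and 189 CPM in untreated H1650 and 285, 262 and 247 CPM with SRSF2. All SRSF2 libraries were higher there, replicate 1 most (0.47 ± 0.045, edgeR adjusted p = 3.91e-11). In A549 it was at 137, 131 and 139 CPM untreated and 149, 157 and 139 CPM with SRSF2, where the lowest SRSF2 library stood next to the highest untreated one. That rise (0.13 ± 0.046, edgeR adjusted p = 0.031) was not called by DESeq2, with RLE scaling, on log2 FPKM, or without SRSF2 replicate 1 or 2 or untreated replicate 1 or 2 (adjusted p up to 0.237). HNRNPH1 had a log2 fold change of 0.22 ± 0.033 in H1650 and HNRNPH2 of -0.20 ± 0.049. For HNRNPH2, 16.3% of the exon length is shared with a readthrough gene, RPL36A-HNRNPH2, so its counts are uncertain.

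The KH-domain proteins HNRNPK, PCBP1 and PCBP2 bind C-rich RNA. HNRNPK rose in both lines, by 0.11 ± 0.033 in A549 (edgeR adjusted p = 0.00938) and 0.20 ± 0.033 in H1650 (adjusted p = 2.41e-06). PCBP1, made from a gene without introns, was at 18.0, 15.3 and 17.8 CPM in untreated A549 and 21.1, 20.8 and 19.6 CPM with SRSF2, and the groups did not overlap. The A549 rise (0.27 ± 0.076, edgeR adjusted p = 0.00561) lost its call without untreated replicate 2, the lowest library (adjusted p = 0.0694). Of the PCBP1 exon length, 52.2% is overlapped by its antisense gene PCBP1-AS1, and reads of the 2 genes cannot be told apart where the counting was not by strand, which is not stated. PCBP1-AS1 was at 11.1 ± 0.36 CPM untreated and 11.8 ± 0.27 CPM with SRSF2 in A549 and was not called. PCBP1 in H1650 and PCBP2 in both lines were not called.

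HNRNPU, a chromatin-bound scaffold protein, and its relative HNRNPUL1 moved apart in H1650. HNRNPUL1 was at 301, 299 and 296 CPM in untreated H1650 and 224, 201 and 209 CPM with SRSF2, every SRSF2 library being lower (-0.50 ± 0.037, edgeR adjusted p = 8.12e-14). In A549 it was at 406, 414 and 411 CPM untreated and 398, 398 and 386 CPM with SRSF2, without overlap but below the threshold (-0.06 ± 0.036, edgeR adjusted p = 0.234). HNRNPU rose by 0.14 ± 0.033 in H1650 (edgeR adjusted p = 0.000299), a call lost with plain library totals and on log2(FPKM + 0.1) (adjusted p up to 0.0909). HNRNPR and SYNCRIP (hnRNP Q), a related pair of mRNA-binding proteins, had log2 fold changes between -0.10 and 0.06 over both lines, and HNRNPR was called lower in H1650 (adjusted p = 0.0161), a call lost without SRSF2 replicate 2 or untreated replicate 1 and in a fit to the H1650 libraries alone (adjusted p up to 0.071). HNRNPLL, which binds CA-rich RNA and is best known from T cells, fell in H1650 (-0.20 ± 0.046, edgeR adjusted p = 0.00034), while its relative HNRNPL and the GU-binding HNRNPM were called in neither line.

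The PTB proteins bind pyrimidine tracts and repress exons, and PTBP1 is known to hold down its neuronal relative PTBP2 by making its transcript skip an exon. All 3 fell in H1650, and for all 3 the log2 fold change was lower in H1650 than in A549. PTBP1 was at 469.5, 467 and 462 CPM in untreated H1650 and 298, 317 and 334 CPM with SRSF2, a drop with a wide gap between the groups (-0.56 ± 0.036, edgeR adjusted p = 2.37e-15). In A549 it was at 538, 548 and 529 CPM untreated and 509, 504 and 509 CPM with SRSF2, and this lower level did not pass the test (-0.09 ± 0.036, edgeR adjusted p = 0.0643), although it did by DESeq2, with RLE scaling and in a fit to the A549 libraries alone. PTBP2 was at 25.6, 22.9 and 23.4 CPM in untreated A549 and 32.5, 31.7 and 30.2 CPM with SRSF2. It was at 37.7, 39.0 and 36.5 CPM in untreated H1650 and 35.3, 32.2 and 32.5 CPM with SRSF2. The groups did not overlap in either line, and the directions were opposite: 0.39 ± 0.061 (edgeR adjusted p = 4.68e-06) in A549 and -0.18 ± 0.058 (edgeR adjusted p = 0.0078) in H1650, with a difference of -0.57 ± 0.085 (edgeR adjusted p = 7.88e-07). Both PTBP2 calls held in every alternative. PTBP3, the third relative, was at 217, 224 and 208 CPM in untreated H1650 and 155, 152 and 168 CPM with SRSF2, all SRSF2 libraries being lower (-0.45 ± 0.041, edgeR adjusted p = 1.51e-11). In A549 it was at 204, 203 and 217 CPM untreated and 216, 217 and 213 CPM with SRSF2, and the groups overlapped (0.05, adjusted p = 0.388). The difference between the lines was -0.47 ± 0.051 for PTBP1 and -0.50 ± 0.058 for PTBP3, and both were called (edgeR adjusted p = 1.78e-09 and 8.67e-09).

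RBM39, a relative of the splicing factor U2AF and the target of the sulfonamide drugs that act as molecular glue, had the largest change of any member in H1650. It was at 404, 402 and 394 CPM in untreated H1650 and 746, 743 and 652 CPM with SRSF2, a 1.78-fold level (0.84 ± 0.04, edgeR adjusted p = 6.12e-19). All SRSF2 libraries were far above the untreated ones, with replicate 3 the lowest of them. In A549 it was at 325, 326 and 330.0 CPM untreated and 368, 360.5 and 346 CPM with SRSF2, also without overlap. The rise in A549 (0.13 ± 0.041, edgeR adjusted p = 0.0122) lost its call without SRSF2 replicate 1 and on log2 FPKM (adjusted p up to 0.0668), and the difference between the lines was 0.71 ± 0.057 (edgeR adjusted p = 2.2e-12).

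RBM5 and RBM10, related regulators of apoptosis genes, the latter often mutated in lung adenocarcinoma, moved against each other and swapped direction between the lines. RBM5 was at 44.2, 46.4 and 45.4 CPM in untreated A549 and 50.6, 53.9 and 51.8 CPM with SRSF2, and at 78.4, 78.5 and 74.9 CPM in untreated H1650 and 65.4, 67.6 and 67.6 CPM with SRSF2. The groups did not overlap in either line: RBM5 rose in A549 (0.20 ± 0.048, edgeR adjusted p = 0.00122) and fell in H1650 (-0.21 ± 0.045, edgeR adjusted p = 0.000132). RBM10 was at 102, 99.7 and 104 CPM in untreated A549 and 89.6, 92.8 and 98.8 CPM with SRSF2, and at 90.9, 83.0 and 88.2 CPM in untreated H1650 and 109, 108 and 104 CPM with SRSF2. Here too the groups did not overlap, with the SRSF2 libraries lower in A549 (-0.12 ± 0.044, edgeR adjusted p = 0.0381) and higher in H1650 (0.29 ± 0.044, edgeR adjusted p = 6.01e-07). The difference between the lines was -0.41 ± 0.065 for RBM5 and 0.41 ± 0.063 for RBM10 (edgeR adjusted p = 3.03e-06 and 1.39e-06). The RBM10 call in A549 was lost when any 1 of 5 A549 libraries (all but SRSF2 replicate 3) was left out, with an adjusted p of 0.0519 to 0.2. Of the RBM10 exon length, 16.4% is overlapped by NDUFB11, which rose in H1650 by 0.18 (adjusted p = 0.000579), and its part in the RBM10 value was not tested. For RBM5, 17.4% is overlapped by other genes, RBM5-AS1 among them. RBM25, which regulates BCL2L1 splicing, was called in neither line.

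The 5 members that set tissue patterns of splicing rose or did not pass the test in A549, while RBFOX3, outside the module, fell there (-0.45). MBNL2, a muscleblind protein that switches exons between fetal and adult patterns, was at 32.9, 29.5 and 29.4 CPM in untreated A549 and 60.5, 57.0 and 56.4 CPM with SRSF2. The SRSF2 libraries all lay far above the untreated ones, a 1.89-fold level (0.92 ± 0.058, edgeR adjusted p = 1.63e-14). In H1650 it was at 63.6, 63.3 and 59.5 CPM untreated and 74.3, 64.8 and 64.8 CPM with SRSF2, where the 2 groups nearly touched. That small rise (0.13 ± 0.054, edgeR adjusted p = 0.0381) lost its call in 9 of 14 alternatives, among them DESeq2, plain totals and the fit without SRSF2 replicate 1 or untreated replicate 2 or 3 (adjusted p up to 0.583), while the difference between the lines was the largest of any member (-0.79 ± 0.079, edgeR adjusted p = 3.4e-10). MBNL1 was called in H1650 (0.25 ± 0.058, edgeR adjusted p = 0.000337), though on log2 FPKM it was not (adjusted p up to 0.125). QKI, a STAR-family regulator with lower levels in many lung tumours, was at 137, 134 and 137 CPM in untreated A549 and 174, 167 and 161 CPM with SRSF2. The groups did not overlap (0.29 ± 0.045, edgeR adjusted p = 3.22e-06), and in H1650 they did (0.08, adjusted p = 0.141), where QKI and RBFOX2 were called higher only when SRSF2 replicate 3, the lowest of the SRSF2 libraries for both, was left out. For QKI the lines differed (-0.22 ± 0.064, edgeR adjusted p = 0.00535). RBFOX2, which binds GCAUG, rose slightly in A549 (0.11 ± 0.041, edgeR adjusted p = 0.0423), a call lost in 10 of 14 alternatives, including every omission of a library (adjusted p up to 0.195). CELF1, which binds GU-rich RNA and often opposes the MBNL proteins, fell in H1650 (-0.39 ± 0.041, edgeR adjusted p = 3.22e-10) and was at 0.03 in A549 (adjusted p = 0.65).

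ELAVL1 (HuR), which binds U- and AU-rich elements and stabilises mRNA, fell in both lines and most in H1650. It was at 92.5, 91.1 and 91.4 CPM in untreated H1650 and 59.2, 59.6 and 61.1 CPM with SRSF2, with little spread in either group (-0.61 ± 0.042, edgeR adjusted p = 7.6e-15). In A549 it was at 118, 113 and 118 CPM untreated and 104, 103 and 106 CPM with SRSF2, also without overlap (-0.15 ± 0.04, edgeR adjusted p = 0.00263). KHDRBS1 (Sam68), a STAR protein that links signalling to splicing, was at 222, 240.0 and 239 CPM in untreated H1650 and 152, 164 and 166 CPM with SRSF2, all SRSF2 libraries being lower (-0.54 ± 0.04, edgeR adjusted p = 6.68e-14). Its smaller fall in A549 (-0.11 ± 0.04, edgeR adjusted p = 0.0379) lost the call on log2 FPKM and when any 1 of the 6 A549 libraries was left out (adjusted p up to 0.152). For both genes the fall was larger in H1650 (-0.46 ± 0.058, edgeR adjusted p = 4.2e-08 for ELAVL1 and -0.43 ± 0.057, edgeR adjusted p = 7.87e-08 for KHDRBS1). TIAL1, which binds U-rich RNA next to splice sites, rose in H1650 (0.21 ± 0.042, edgeR adjusted p = 7.48e-05).

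EWSR1, a FET protein known from fusion genes of sarcomas, rose in both lines. It was at 389, 403 and 395 CPM in untreated A549 and 434, 444 and 434 CPM with SRSF2, and at 431, 426 and 429.8 CPM in untreated H1650 and 611, 601 and 586 CPM with SRSF2. No SRSF2 library overlapped the untreated ones in either line (0.14 ± 0.033, edgeR adjusted p = 0.000831 in A549 and 0.48 ± 0.033, edgeR adjusted p = 8.05e-15 in H1650), and the rise was larger in H1650 (0.34 ± 0.046, edgeR adjusted p = 2.28e-07). TARDBP (TDP-43), which blocks cryptic exons at UG repeats, rose in H1650 (0.28 ± 0.036, edgeR adjusted p = 3.54e-08), with 29% of its exon length shared with another gene model on the same strand. The paraspeckle partners SFPQ and NONO both rose in H1650. NONO did so by 0.35 ± 0.032 (edgeR adjusted p = 1.65e-11). SFPQ did so by 0.10 ± 0.038 with overlapping groups, and its call was lost by DESeq2, with plain totals, on log2 FPKM, and without SRSF2 replicate 1 or 2 or untreated replicate 3 (adjusted p up to 0.781). MATR3, a nuclear matrix protein that shares 42.5% of its exon length with a second gene model of the same name, was called in neither line.

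Because related regulators often replace each other on the same RNA, the log2 ratio of 12 pairs was compared within libraries, where depth and scaling cancel. The SRSF2 and untreated libraries did not overlap in 8 pairs in A549 and 8 in H1650 (66.7% of pairs in each line). The CPM of single genes, a measure unlike a ratio, did not overlap in 45.6% of all genes tested in A549 and in 64.7% in H1650. A share over ratios of other genes was not obtained, and some of the pairs have a gene in common. The number of pairs apart is therefore a description only. With 3 libraries against 3 the exact permutation test cannot go below p = 0.10 (two-sided; 0.15 after Benjamini-Hochberg adjustment over 24 tests). The log2 ratio of PTBP1 to PTBP2 was 4.40, 4.58 and 4.50 in untreated A549 and 3.97, 3.99 and 4.07 with SRSF2, and 3.64, 3.58 and 3.66 in untreated H1650 and 3.08, 3.30 and 3.36 with SRSF2. It was lower with SRSF2 in both lines: in A549 PTBP2 rose (0.39), and in H1650 the log2 fold change was -0.56 for PTBP1 and -0.18 for PTBP2. The log2 ratio of RBM5 to RBM10 was higher with SRSF2 by 0.32 in A549 and lower by a change of -0.50 in H1650. MBNL1 to MBNL2 changed by -0.79 in A549 and 0.12 in H1650, where the groups overlapped. In H1650, HNRNPF to HNRNPH1 changed by -0.74, HNRNPU to HNRNPUL1 by 0.64 and HNRNPH1 to HNRNPH2 by 0.42. HNRNPR to SYNCRIP (0.01 in A549 and -0.01 in H1650) and HNRNPD to HNRNPDL (-0.06 and -0.03) had overlapping groups in both lines.

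**Figure D3:**
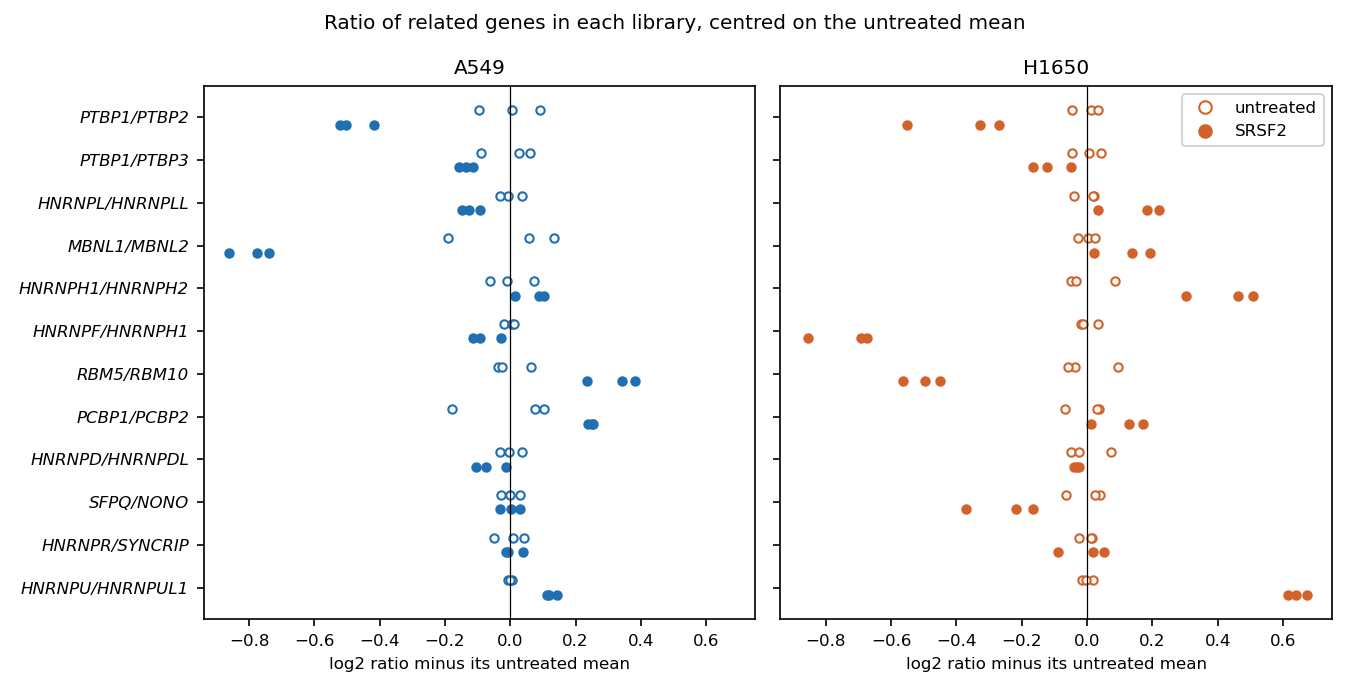
Log2 ratio of 12 pairs of related genes (y axis) in each library, minus the mean of the untreated libraries of the line (x axis), in A549 (left) and H1650 (right), with open points for untreated and filled points for SRSF2 libraries. The SRSF2 points of PTBP1/PTBP2 lie left of 0 in both lines, and those of RBM5/RBM10 lie right of 0 in A549 and left of it in H1650.

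Before any over-expression the lines differed in most members. Untreated H1650 was higher than untreated A549 in 11 members (26.8%, against 40.1% of all genes) and lower in 26 (63.4%, against 42.3%). Without the filter on low counts these numbers were 13 and 22 (over all genes 40.1% and 41.4%). With 1 library left out, 22 to 25 members were lower (over all genes 41% to 41.4%). The calls of HNRNPDL, HNRNPLL, RBM25, TARDBP and TIAL1 were each lost in 4 to 8 of 14 alternatives. A difference of at least 0.5 on the log2 scale was found in 11 members (26.8%, against 61.7%), 4 higher and 7 lower in H1650. The median log2 difference was -0.20 over the members and -0.04 over all genes. HNRNPF had the largest difference, 433 ± 1.4 CPM in A549 against 157 ± 0.89 CPM in H1650 (-1.46 ± 0.039, edgeR adjusted p = 1.93e-27). MBNL2 was higher in H1650, at 62.1 ± 2.2 CPM against 30.6 ± 2 CPM (1.02 ± 0.058, edgeR adjusted p = 8.95e-18), so that A549 with SRSF2, at 57.9 ± 2.2 CPM, came close to untreated H1650. RBFOX2 (0.85), RBM5 (0.77) and PTBP2 (0.66) were also higher in H1650, with per-library levels of 202, 204 and 201 CPM against 111, 114 and 111 CPM for RBFOX2. HNRNPC was at 454, 463 and 436 CPM in H1650 against 789.8, 779.6 and 795 CPM in A549 (-0.81 ± 0.034, edgeR adjusted p = 1.31e-21). HNRNPA0, at 162, 165 and 177 CPM against 272, 281 and 276 CPM, and SYNCRIP, at 115, 116 and 111 CPM against 179, 188 and 183 CPM, were lower in H1650 as well (-0.72 and -0.68). The 8 genes named in this comparison were chosen among called members whose levels do not overlap between the lines, so their separation is not a finding. Each line is 1 cell line, so these differences describe A549 and H1650 and no wider class of tumours.

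Levels of different genes were compared per length, as reads per kilobase of annotated exons, scaled like CPM (RPKM). In untreated A549 the highest were HNRNPA2B1 (166 ± 3 RPKM), HNRNPAB (134 ± 2.7), HNRNPF (133 ± 0.42), HNRNPK (121 ± 1.8) and NONO (116 ± 1.2), and HNRNPAB and HNRNPF did not differ beyond their spread. In untreated H1650 they were HNRNPA2B1 (174 ± 3 RPKM), HNRNPK (116 ± 2.4), HNRNPAB (105 ± 4), NONO (75.4 ± 0.32) and PTBP1 (67.7 ± 0.54), and KHDRBS1, SFPQ, HNRNPA3 and HNRNPC then followed within 4 RPKM of each other. HNRNPF, at 48.3 ± 0.27 RPKM, was no longer among the 10 highest in H1650. The lowest member was PTBP2 in both lines (1.85 ± 0.11 RPKM in untreated A549 and 2.92 ± 0.095 in untreated H1650), far below PTBP1 (78.2 ± 1.4 in untreated A549). The order depends on the gene length used: the authors' deposited FPKM, whose lengths include introns for 24 of the 41 members, shares 6 of the 10 highest members in untreated A549.

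**Figure D4:**
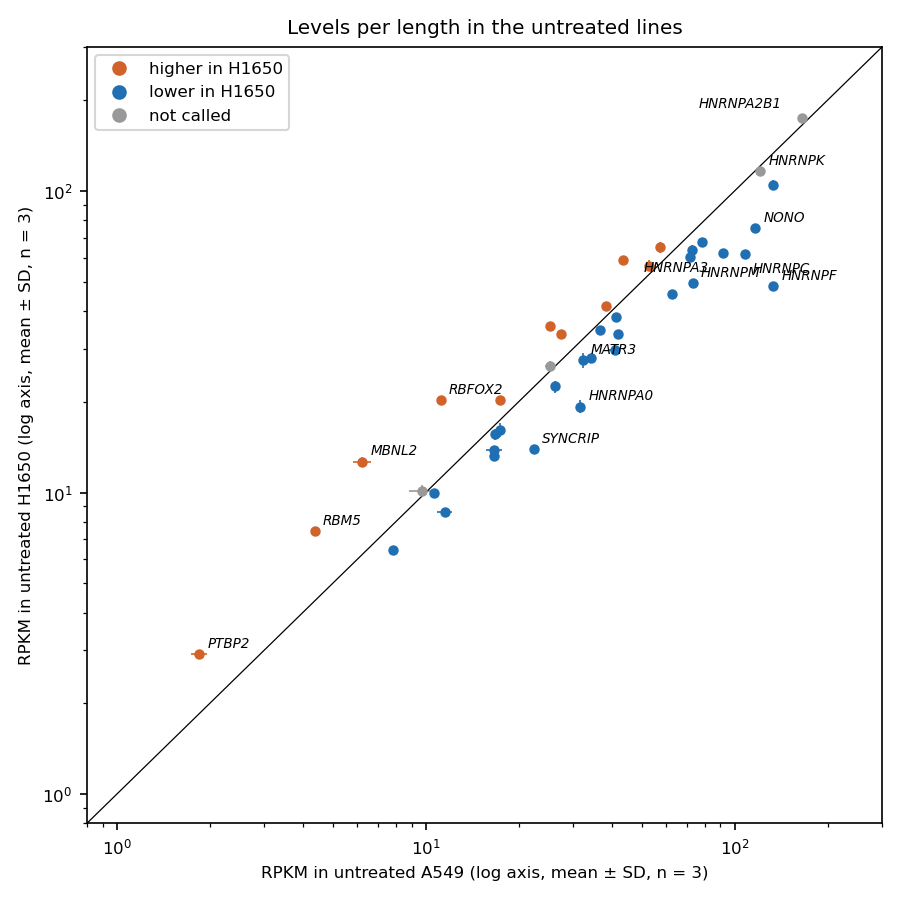
RPKM (both axes logarithmic, mean ± SD of 3 libraries) of the 41 members in untreated A549 (x axis) and untreated H1650 (y axis), with the line of equal levels and colours for members called higher or lower in H1650. More points lie below the line (26 called lower) than above it (11 called higher), with HNRNPF far below it and RBFOX2, MBNL2, RBM5 and PTBP2 above it.

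Other splicing regulators outside the module (97 listed, 78 tested) were counted by the same rules. In A549, 12 rose (15.4%, against 16.4% of all genes) and 12 fell (15.4%, against 15.9%). Without A549 SRSF2 replicate 1, 7 of these regulators fell, and over all genes 12.5% did. In H1650, 29 rose (37.2%, against 31.0%) and 25 fell (32.1%, against 31.3%). The balance depended on the scaling: it was 9 and 16 in A549 with RLE scaling and 8 and 16 by DESeq2, and in H1650 22 and 35 with plain library totals and 20 and 33 on log2(FPKM + 1). Over all genes the shares were, in the same order, 14.5% and 18.7%, 13.6% and 17.5%, 25.7% and 37.2%, and 23.5% and 35.1%. A called change of at least 0.5 on the log2 scale was found in 2 of these regulators in A549 (2.56%, against 7.34%) and in 20 in H1650 (25.6%, against 29.9%). RBMS2 rose from 86.9 ± 0.57 to 239.9 ± 11 CPM in H1650 (log2 fold change 1.47 ± 0.043, edgeR adjusted p = 8.58e-25), and its relative RBMS1 fell from 179.9 ± 2.5 to 96.6 ± 2.7 CPM (-0.90 ± 0.039, adjusted p = 2.9e-20). KHDRBS3, a relative of KHDRBS1, and the Musashi protein MSI1 rose from low levels (2.05 ± 0.088 to 5.23 ± 0.87 CPM and 2.65 ± 0.11 to 6.58 ± 0.36 CPM). KHDRBS3 and MSI1 reached the 5 CPM needed for naming only in the SRSF2 group, so their rise is tied to the choice. In A549, RBFOX3, a relative of RBFOX2, fell from 93.2 ± 3.1 to 68.2 ± 5.7 CPM (-0.45 ± 0.056, adjusted p = 8.43e-08) and IGF2BP2 rose from 21.8 ± 1.1 to 28.4 ± 0.89 CPM (0.38 ± 0.057, adjusted p = 1.86e-06). Between the untreated lines, genes were ranked among called ones with at least 5 CPM in the higher line and groups that do not overlap. The largest contrasts were regulators detected in 1 line and near 0 in the other. Ranking by log2 fold change under this rule favours such genes, so the pattern is a description only. ESRP2, an epithelial splicing regulator, was at 0.267 ± 0.17 CPM in A549 and 116.1 ± 6.4 CPM in H1650. RBFOX3 and NOVA1, both known from neurons, were at 93.2 ± 3.1 and 11.9 ± 1.1 CPM in A549 and at 0.186 ± 0.049 and 0.0112 ± 0.019 CPM in H1650.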

How the data were processed

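Polyadenylated RNA of 12 libraries (4 groups of 3, grouped by the labels' cell line and treatment) was sequenced by the authors. The authors deposited raw counts per gene. The submitters' processing notes name featureCounts 2.0.0, STAR 2.7.7a, fastp 0.20.1 and the build GRCh38. Annotation release and strandedness are not given in the sources used here. The deposited FPKM values, which the authors derived from these counts, use a gene length equal to the genomic span for 11519 of 16139 genes compared with GENCODE 29, and were used only in alternatives.

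Counts were tested with edgeR 4.0.16 (R 4.3.3): filterByExpr, TMM scaling, 1 mean per group, 12 libraries, 8 residual degrees of freedom, and Benjamini-Hochberg adjustment over 15991 genes. The SE was obtained by dividing the size of the log2 fold change by the root of its F statistic. Alternatives were DESeq2 1.42.0, limma 3.58.1 on log2(FPKM + 1) and log2(FPKM + 0.1), RLE scaling, no filter, only the groups compared, a replicate block, each library left out, and plain library totals, the last chosen after seeing the data. RPKM used GENCODE 29 exon length. Depth was 23876899 to 32079027 counts, and intervals for counts are not given because replicates carry the error. The pipeline was tested on simulated data.

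Members and lists were chosen with earlier results of these data known. Values in every library are given for called members with the largest changes whose groups do not overlap (8 in each line, 8 between untreated lines). They are also given for the 5 members with the largest called difference, by adjusted p alone, and for members called in opposite directions. Of other regulators, up to 4 per comparison with at least 5 CPM were eligible, and not all are named. A table of gene names gave symbols to 16076 IDs and GENCODE 29 to 63 more. Promoters are RefSeq windows of GRCh38.p14.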

Additional observations from a re-analysis of the deposited data

Results flagged for a closer look

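In 25 members the SRSF2 effect differed between the lines by a test of the difference itself (edgeR, adjusted over 15991 genes). The values below are the log2 fold change in H1650 minus that in A549.

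The effects were called with opposite signs for HNRNPA2B1 (0.42), RBM10 (0.41), PTBP2 (-0.57) and RBM5 (-0.41). The A549 calls of HNRNPA2B1 and RBM10 were lost in some alternatives. Among members not called with opposite signs, the change in H1650 lay above that in A549 for RBM39 (0.71), EWSR1 (0.34) and HNRNPH3 (0.34). These 3 were called higher in both lines. It also lay above it for NONO (0.42), TARDBP (0.25), HNRNPH1 (0.24), TIAL1 (0.22), HNRNPA3 (0.21) and SFPQ (0.17), which were called in H1650 and not in A549.

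The change in H1650 lay below that in A549 for ELAVL1 (-0.46), KHDRBS1 (-0.43) and HNRNPF (-0.41), which were called lower in both lines, and for MBNL2 (-0.79), which was called higher in both. It also lay below it for PTBP3 (-0.50), PTBP1 (-0.47), HNRNPUL1 (-0.44), CELF1 (-0.42), HNRNPLL (-0.28) and HNRNPR (-0.16), called in H1650 and not in A549, for QKI (-0.22), called in A549 and not in H1650, and for SYNCRIP (-0.15), called in neither. Of the 25 differences, 21 kept their call in all 19 alternatives. The exceptions were HNRNPA3, TIAL1, SFPQ and SYNCRIP. SYNCRIP lost its call in 10 alternatives (adjusted p up to 0.0981), 8 of which left out 1 library.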

How the results depend on the processing

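No log2 fold change of a member named with its value in every library changed sign under any alternative, in the comparison it was chosen for. Members were chosen among those called there, so a change of sign was unlikely from the start. Of the counts, medians and levels, 19 values moved by more than 1.5 times (counts) or by more than the spread between libraries (medians and levels), and they are given here. Smaller shifts can still turn the balance of rises and falls. With 1 library left out at a time, the number of members lower in A549 was 2 to 3 (6 with all libraries). That of other regulators lower in A549 was 7 to 12 (12 with all). Over all genes 12.4% to 14.1% were lower there, against 15.9% with all libraries. The number of members with a difference between lines of at least 0.5 on the log2 scale was then 3 to 5 (3 with all). The 5 was reached without H1650 SRSF2 replicate 3. Plain library totals gave 8 such differences, and log2(FPKM + 0.1) gave 5. On log2(FPKM + 1), which understates the change of low genes, 0 members in A549, 3 in H1650 and 7 between untreated lines had a called change of at least 0.5, and the median difference of members between untreated lines was -0.14. The summed level of members was 13441 CPM in untreated A549 with RLE scaling, and with plain totals 13645 in untreated A549, 13563 in A549 SRSF2 and 11812 in H1650 SRSF2. The deposited FPKM shared 6 of the 10 highest members in untreated A549.

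Same-numbered replicates of different groups did not deviate together (correlation of residuals -0.0272 to 0.0446), so numbers were not taken as pairs. With a replicate block, 11 members rose and 6 fell in A549, and 15 rose and 15 fell in H1650. Calls held in all 14 alternatives for 8 of 16 members in A549, 24 of 30 in H1650 and 32 of 37 between untreated lines. The cause of these losses was not tested.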
